A study of Homo sapiens with 7 samples.

Results

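Histone marks and CTCF were described over 10 genes that drive or restrain the cell cycle in HCT116 cells: the D-type cyclins CCND1, CCND2 and CCND3, the E-type cyclins CCNE1 and CCNE2, the A-type and B-type cyclins CCNA2 and CCNB1, the kinase CDK1, the transcription factor E2F1 and the pocket protein RB1. The genes were chosen by name, and every interval that the deposited peak lists hold over the gene record and 10 kb around it was taken. They are 10 of 20163 protein-coding genes of GENCODE 44 on hg19. HCT116 is an established line from a human colorectal carcinoma, and its cells were grown untreated at 200000 cells per well, cross-linked and sonicated in the well for 6 min in 100 µl with PIXUL, a 96-well ultrasound instrument. H3K4me1, H3K4me3, H3K9Ac, H3K36me3, H3K27me3 and CTCF were each profiled by ChIP-seq from 1 well, so each mark has 1 library, no mark has a replicate, and no condition was compared with another.

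D-type cyclins with CDK4 or CDK6, and then E-type cyclins with CDK2, phosphorylate the RB1 protein, which otherwise holds E2F factors such as E2F1 in check. Freed E2F factors switch on the genes of DNA synthesis, among them those of the E-type and A-type cyclins, and CDK1 with cyclin A and cyclin B then takes the cell into mitosis. H3K4me3 and H3K9Ac are known as marks of active promoters, H3K4me1 of enhancers and promoter flanks, H3K36me3 of transcribed gene bodies and H3K27me3 of genes held silent by Polycomb, while CTCF is a DNA-binding protein of insulators and loop anchors.

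The 10 genes lie on 10 chromosomes. In hg19 CCND1 (ENSG00000110092) is at chr11:69455924-69469242 on the plus strand, CCND2 (ENSG00000118971) at chr12:4378937-4414519 on the plus strand and CCND3 (ENSG00000112576) at chr6:41902672-42018095 on the minus strand. CCNE1 (ENSG00000105173) is at chr19:30302898-30315219 on the plus strand and CCNE2 (ENSG00000175305) at chr8:95891998-95908906 on the minus strand. CCNA2 (ENSG00000145386) is at chr4:122737599-122745038 on the minus strand, CCNB1 (ENSG00000134057) at chr5:68462962-68474072 on the plus strand and CDK1 (ENSG00000170312) at chr10:62538089-62554610 on the plus strand. E2F1 (ENSG00000101412) is at chr20:32263283-32274191 on the minus strand and RB1 (ENSG00000139687) at chr13:48877880-49173572 on the plus strand. The median length of the gene records was 14920.5 bp against 27219 bp for all protein-coding genes. Longer than the median of all genes are the records of CCND2, with a record of 35583 bp and a canonical transcript of 31592 bp, RB1, with a record of 295693 bp and a canonical transcript of 178140 bp, and CCND3, with a record of 115424 bp drawn out by long isoforms and a canonical transcript of 6857 bp. Positions are counted from the transcription start site (TSS) of the canonical transcript, in the direction of transcription.

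Each interval carries 3 values used here: its width, its fold enrichment, which is the linear ratio of ChIP signal over background that the peak caller gave, and the −log10 of its q-value. An interval is called past the limits where it met the limits of the Methods, that is, for H3K4me1 and H3K27me3, a fold enrichment over 2 at a q-value below 0.001, and for the other marks a fold enrichment over 5 at a q-value below 1e-10. The lists held between 16112 (H3K4me3) and 55270 (H3K27me3) intervals, of which 12749 were past the limits for H3K4me3, 12720 for H3K9Ac, 32292 for H3K4me1, 24536 for CTCF, 1552 for H3K27me3 and 90 for H3K36me3. The number of reads behind them is unknown, an interval that was not called does not show that a mark is absent, and with 1 library per mark no spread between replicates can be given and no test was made. Peaks in the H3K27me3 list carry names of another pattern than the other 5 lists, without the name of the cell line. As a check of the label of the H3K4me3 list alone, which says nothing of the other lists, 5 of 6 epithelial markers had H3K4me3 past the limits at their TSS (VIL1 had none), and 1 of 6 markers of other cell types (COL1A1), on a list drawn up after the peak lists had been opened. Of all protein-coding genes 59.1% had such a peak, so counts out of 6 are a weak check.

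Promoter sequences are shown for 6 members. They are some of those with words by which E2F factors, CREB-family factors, NF-Y and the DREAM complex are known to bind cell cycle promoters. CCND2, CCND3 and CCNE2 also carry such words and are not shown. Each run was read from the GRCh37 genome, 5′ to 3′ on the strand of the gene, and, except for CDK1, ends at the base before the TSS. Capitals mark E2F, CRE, CCAAT and CHR words, which were searched on both strands. Those of E2F were TTTCCCGC, TTTCGCGC, TTTGCCGC and TTTGGCGC. The CRE, the response element of CREB-family factors, was searched as TGACGTCA. AP-1, the word of the FOS and JUN factors, was searched as TGAGTCA and does not occur in these runs. The CCAAT box, the word of NF-Y, was searched by its own letters. The CHR, or cell cycle genes homology region, was searched as TTTGAA, and no marked words overlap each other. GC boxes (GGGCGG) and E-boxes (CACGTG) were also searched but stay in lower case, and variants of the words were not searched. The 150 bases of the CCND1 promoter, at chr11:69455774-69455923 on the plus strand, hold an E2F word.
CCND1: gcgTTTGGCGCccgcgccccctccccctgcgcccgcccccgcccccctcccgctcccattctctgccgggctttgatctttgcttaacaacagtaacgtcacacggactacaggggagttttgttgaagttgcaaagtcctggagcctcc
The CCNA2 promoter, at chr4:122745039-122745188 on the minus strand, holds a CRE and a CCAAT word on the reverse strand (ATTGG), and the CCNB1 promoter, at chr5:68462827-68462976 on the plus strand, holds a pair of CCAAT words.
CCNA2: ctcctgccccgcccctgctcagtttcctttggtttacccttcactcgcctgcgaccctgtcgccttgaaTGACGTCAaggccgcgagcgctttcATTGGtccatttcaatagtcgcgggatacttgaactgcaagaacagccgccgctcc
CCNB1: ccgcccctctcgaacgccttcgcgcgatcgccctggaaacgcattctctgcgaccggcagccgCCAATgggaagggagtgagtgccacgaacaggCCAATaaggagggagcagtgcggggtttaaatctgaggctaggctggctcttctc
The E2F1 promoter, at chr20:32274192-32274341 on the minus strand, holds 2 E2F words, 1 of them on the reverse strand, and the RB1 promoter, at chr13:48877737-48877886 on the plus strand, holds 1.
E2F1: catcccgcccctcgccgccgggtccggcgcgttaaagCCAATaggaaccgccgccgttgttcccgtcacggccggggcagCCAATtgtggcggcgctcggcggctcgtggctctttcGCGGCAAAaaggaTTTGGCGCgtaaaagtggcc
RB1: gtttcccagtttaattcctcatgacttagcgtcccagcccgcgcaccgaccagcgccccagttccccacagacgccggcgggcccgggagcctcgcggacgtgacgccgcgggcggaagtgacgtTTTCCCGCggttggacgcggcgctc
For CDK1 a stretch of 30 bases is shown, at chr10:62538148-62538177 on the plus strand, in which a CCAAT word on the reverse strand stands next to a CHR word.
CDK1: ctgggctctgATTGGctgcTTTGAAagtct

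At their TSS the members were marked as active promoters with the exception of CCND2. Within 1 kb of the TSS, an H3K4me3 peak past the limits was found at 9 of 10 members, against 59.1% of all protein-coding genes (95% Wilson interval 58.5 to 59.8%, which covers counting error only). An H3K9Ac peak was found at the same 9 members, against 58.5% of genes (57.8 to 59.2%), and the only member with neither mark was CCND2, against 39.8% of genes. H3K4me1 past the limits was found at 6 members against 49.1% of genes (48.4 to 49.8%), and all of H3K4me3, H3K9Ac and H3K4me1 at 6 members against 43.1%, shares that lie close to the background for so few genes. H3K27me3 was found at 1 member, CCND2, against 1.22% of genes (1.08 to 1.38%), CTCF at 1 member, CCND1, against 13.6% (13.1 to 14.0%), and H3K36me3 at 0 members against 0.298% (0.231 to 0.383%).

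**Figure D1:**
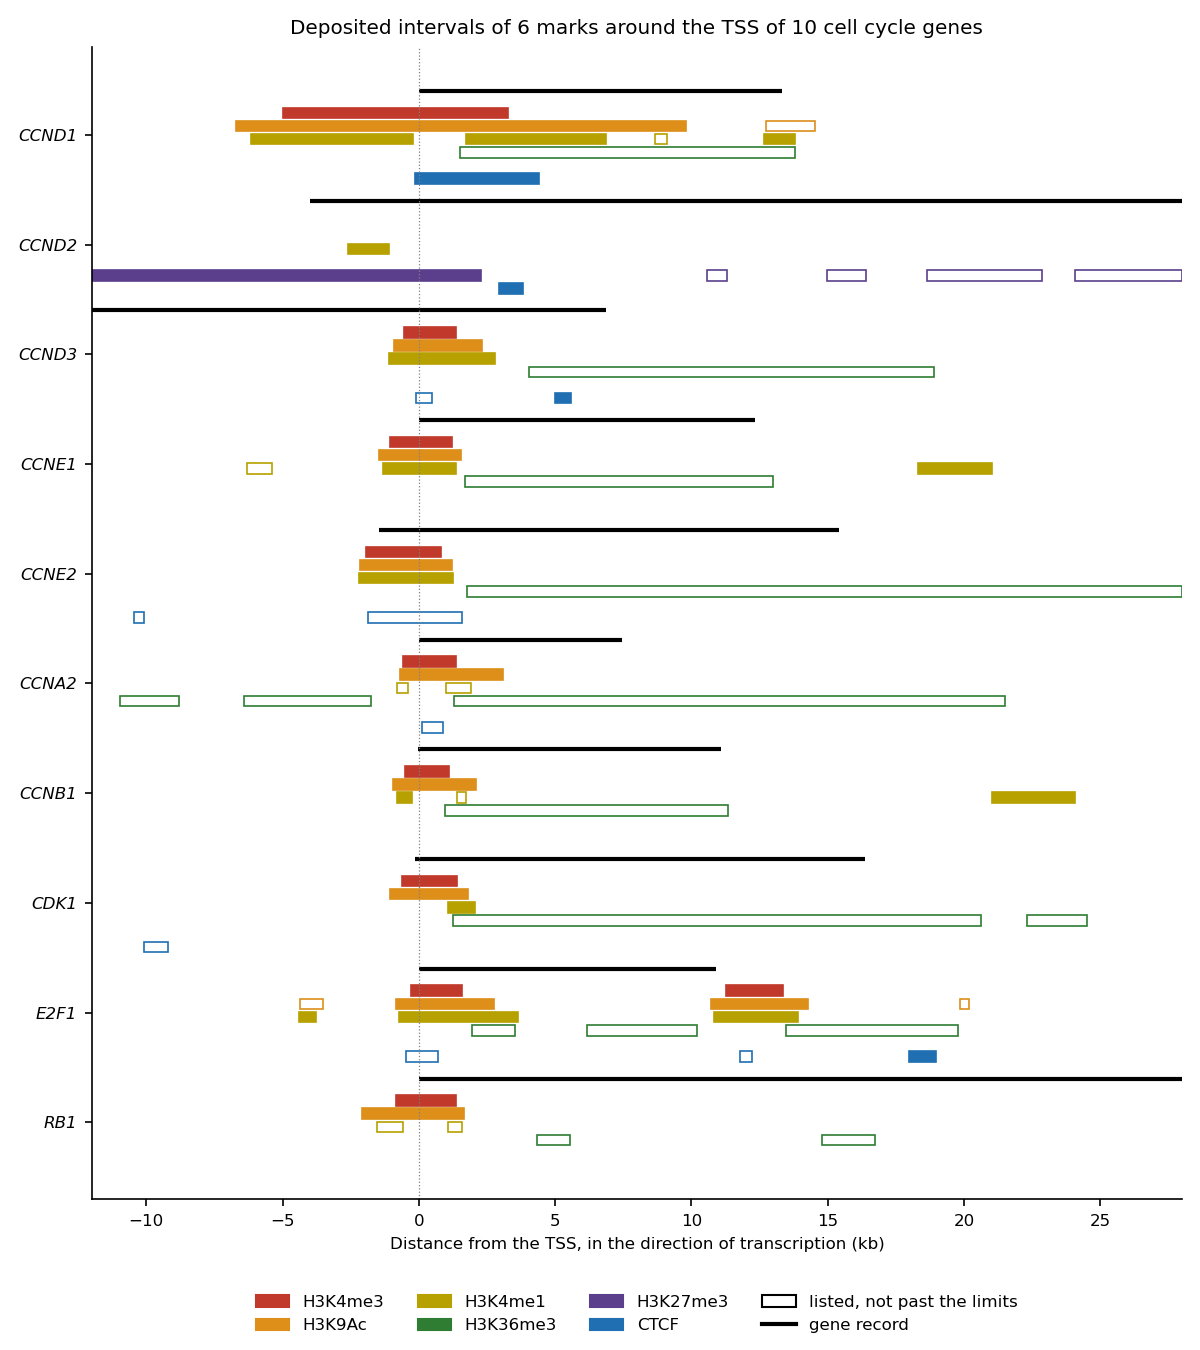
Intervals of 6 marks around the TSS of the 10 members, with the distance from the TSS in kb on the horizontal axis and 1 colour per mark. Filled boxes are past the limits and open boxes are listed but not past them, and black lines are gene records. Boxes that run past the edges are clipped, as for CCND2 and CCNE2, and so are the gene records of CCND2, CCND3 and RB1. Intervals wholly beyond the edges are not drawn, as for CCND2, CCND3 and RB1. CCND2 has no H3K4me3 or H3K9Ac box at its TSS and lies under H3K27me3, and CCND1 has the widest H3K4me3, H3K9Ac and CTCF boxes.

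Over the wider window of the gene record and 10 kb around it, the lists held 110 intervals, of which 53 were past the limits. H3K4me3 gave 12 intervals, all past the limits and over 9 members (69.1% of all genes had such a peak in this window), and H3K9Ac 19 intervals with 12 past the limits, also over 9 members (68.3%). H3K4me1 gave 32 intervals with 19 past the limits over 9 members (71.9%), all but CCNA2, with RB1 counted through the promoter of another gene inside its record. CTCF gave 16 intervals with 9 past the limits over 5 members, CCND1, CCND2, CCND3, E2F1 and RB1 (62.4%). H3K27me3 gave 6 intervals with 1 past the limits over 1 member (3.94%). H3K36me3 gave 25 intervals, none past the limits (0.789%).

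CCND1, the D-type cyclin that mitogen signals are known to induce, carried the widest promoter marks of the 10 genes. Its H3K4me3 peak was 18.0-fold enriched (−log10 q 50.8) and 8260 bp wide, from 4971 bp upstream to 3288 bp downstream of the TSS, over exons 1 to 3. Of the 11924 genes with H3K4me3 at the TSS, 99.9% had a narrower peak and 28.1% a lower fold enrichment, and 8 such peaks of the whole H3K4me3 list were wider. The other 8 members with H3K4me3 at the TSS had peaks between 1628 bp (CCNB1) and 2761 bp (CCNE2), so CCND1 was apart in width. Its H3K4me3 fold enrichment was below that of each of these 8 members. H3K9Ac over CCND1 was 16520 bp wide with a fold enrichment of 15.8, from 6717 bp upstream to 9802 bp downstream, over exons 1 to 4, and 99.1% of genes with H3K9Ac at the TSS had a narrower peak.

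H3K4me1 stood on both sides of the CCND1 TSS and not on it. The upstream peak ran from 6153 to 218 bp before the TSS with a fold enrichment of 6.85, and the downstream peak from 1744 to 6860 bp after it with a fold enrichment of 8.91, which was higher than 98.6% of the H3K4me1 peaks past the limits. The gap between them was 1961 bp and held the TSS. A further H3K4me1 peak of 1152 bp, with a fold enrichment of 4.63, lay over the last exon, from 12663 to 13814 bp, with no H3K4me3 interval. CTCF formed a peak of 4538 bp with a fold enrichment of 9.33 that began 128 bp before the TSS and ended 4409 bp after it. In fold enrichment it was higher than 38.1% of the CTCF peaks past the limits, whereas in width 99.7% of the genes with CTCF at the TSS had a narrower peak, and 16 such peaks of the whole CTCF list were wider. The region under the CTCF peak thus also lay under H3K9Ac in full and under H3K4me3 in part.

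CCND2, another D-type cyclin, was the only member without promoter marks of activity. The H3K4me3 list held no interval over the gene or 10 kb around it. The H3K9Ac list held 1, of 1590 bp, 3.46-fold enriched (−log10 q 2.64), which was not past the limits and lay beyond the 3′ end, 33459 to 35048 bp after the TSS. The TSS lay instead under an H3K27me3 peak of 28136 bp at chr12:4357087-4385222, from 25841 bp upstream to 2294 bp downstream, over exons 1 and 2. Its fold enrichment was 4.19 and its −log10 q 3.83, and 81.2% of the H3K27me3 peaks past the limits had a lower fold enrichment. H3K27me3 past the limits at the TSS or in the gene record was found at 1 of 10 members, against 3.03% of all genes, and an interval of any strength at 2 members (CCND2 and CCND3) against 21.3%.

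Further intervals that were not past the limits carried H3K27me3 along CCND2. They were 719, 1415, 4208 and 8047 bp wide, with fold enrichments of 2.84, 2.96, 3.30 and 3.36, and lay between 10569 and 32118 bp after the TSS. With these, H3K27me3 intervals covered 56.6% of the gene record, and H3K36me3 intervals covered none of it. An H3K4me1 peak past the limits, of 1489 bp with a fold enrichment of 4.85, lay within the H3K27me3 peak, 2601 to 1113 bp before the TSS. CTCF peaks lay downstream of the TSS and beyond the 3′ end, at 2953 to 3822 bp with a fold enrichment of 10.6 and at 33812 to 34653 bp with a fold enrichment of 10.4. The latter overlapped an H3K4me1 peak of 1674 bp with a fold enrichment of 4.70. A second protein-coding record, ENSG00000285901, shares the TSS of CCND2 at a distance of 0 bp, so that the intervals cannot be assigned to either of them.

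**Figure D2:**
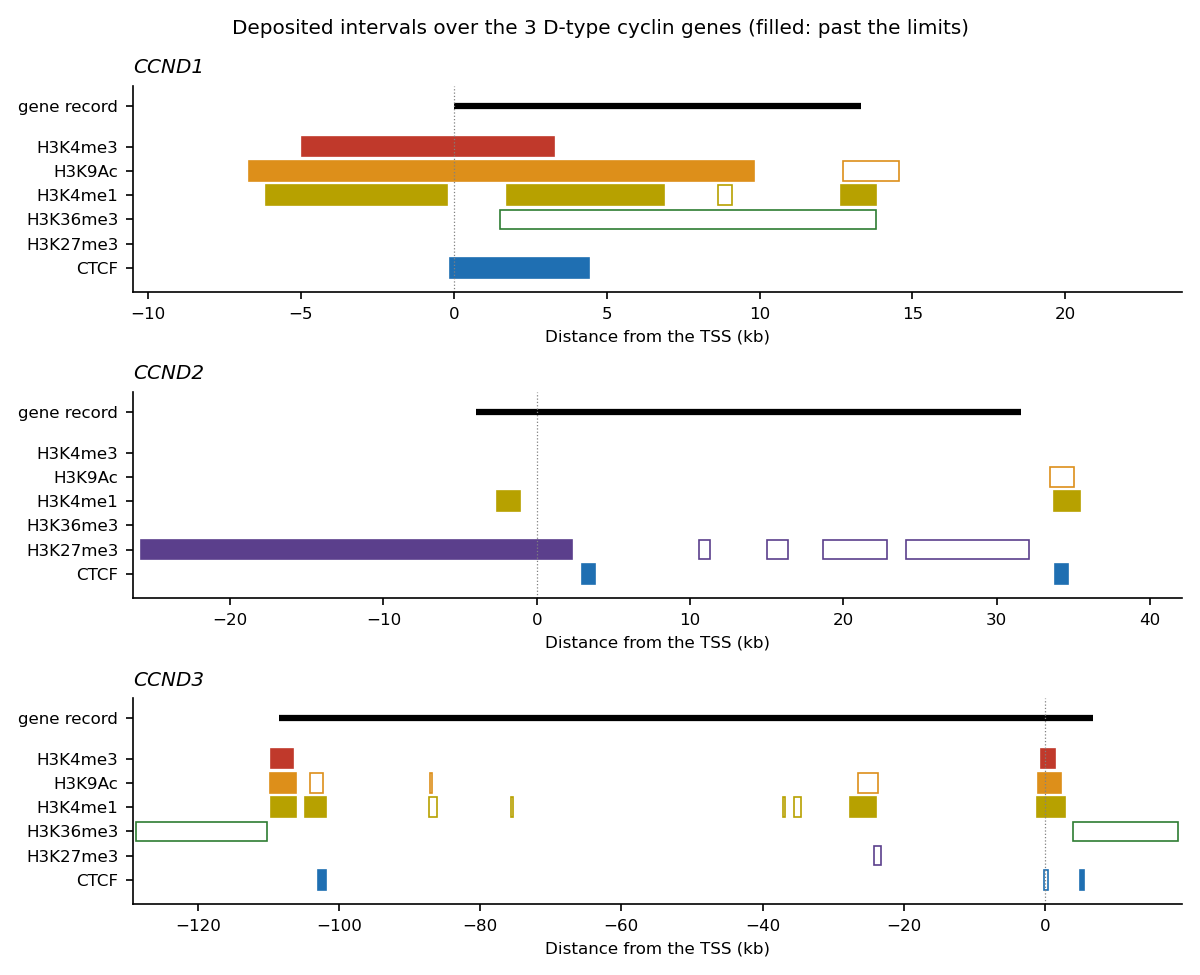
Intervals of the 6 marks over CCND1, CCND2 and CCND3, each panel with its own horizontal axis in kb from the TSS, filled where past the limits and open where not (the narrowest open boxes look like thin lines). CCND1 is covered by wide H3K4me3, H3K9Ac and CTCF boxes, CCND2 by H3K27me3, and CCND3 has H3K4me3, H3K9Ac and H3K4me1 at both the canonical TSS and the far end of its record.

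CCND3, the D-type cyclin best known from lymphoid cells, had marks of the usual promoter kind at its canonical TSS. The H3K4me3 peak had a fold enrichment of 26.2 and a width of 1935 bp, the H3K9Ac peak 13.5 and 3257 bp, and the H3K4me1 peak 4.20 and 3897 bp, all containing the TSS. A second set of peaks lay where the long isoforms begin, 109582 to 106501 bp upstream for H3K4me3 with a fold enrichment of 14.7, with H3K9Ac at 9.06 and H3K4me1 at 5.26. Those peaks also contain the TSS of TAF8, a gene named after its values were seen, and the list cannot say which of the genes they belong to. Between the promoters stood an H3K4me1 peak of 3695 bp with a fold enrichment of 6.02, 27659 to 23965 bp upstream of the canonical TSS. An H3K9Ac interval (3.71) overlapped it, and an H3K27me3 interval (3.16), 24241 to 23165 bp upstream, overlapped only its end nearest the TSS. Neither interval was past the limits. Another H3K4me1 peak, with a fold enrichment of 5.25, lay 104808 to 101880 bp upstream and overlapped a CTCF peak with a fold enrichment of 10.7. A CTCF peak of 594 bp with a fold enrichment of 7.65 lay 5003 to 5596 bp downstream of the TSS.

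CCNE1 and CCNE2, the E-type cyclins that activate CDK2 at the start of S phase, had strong marks at the TSS. H3K4me3 at CCNE1 had the highest fold enrichment of the members, 30.5, with a width of 2288 bp, and CCNE2 had 29.3 with 2761 bp. H3K9Ac was highest of the members at CCNE2, with a fold enrichment of 19.3 that exceeded 91.8% of the genes with H3K9Ac at the TSS, and was 15.0 at CCNE1. H3K4me1 was also highest at the TSS of CCNE2, with a fold enrichment of 7.74 that exceeded 95.5% of the genes with H3K4me1 there, against 5.30 at CCNE1. CCNE2 is thus the member with the highest H3K9Ac and H3K4me1 fold enrichment at the TSS, and its H3K4me3 stands below only that of CCNE1 and CCNA2 among the members. Downstream of CCNE1 an H3K4me1 peak of 2722 bp with a fold enrichment of 3.82 lay 18299 to 21020 bp from the TSS, without an interval of any other mark.

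CCNA2 and CCNB1 are the cyclins of S phase and mitosis, and CDK1 is their kinase partner. Their H3K4me3 peaks were narrower than the median of 2061 bp over all genes with such a peak, as were those of CCND3 and E2F1. None of the 3 had an H3K4me1 peak past the limits over the TSS, and neither had CCND1, CCND2 or RB1. H3K4me3 had a fold enrichment of 29.6 and a width of 1941 bp at CCNA2, 21.5 and 1628 bp at CCNB1, and 25.3 and 1994 bp at CDK1. H3K9Ac had fold enrichments of 14.6, 13.1 and 15.5 in the same order. For H3K4me1, CCNB1 had a peak of 544 bp with a fold enrichment of 4.27 from 813 to 270 bp upstream, CDK1 had a peak of 981 bp with a fold enrichment of 4.65 from 1085 to 2065 bp downstream, and CCNA2 had 2 intervals on either side of the TSS, with fold enrichments of 3.11 and 3.69, that were not past the limits. No CTCF peak past the limits lay over any of the 3 genes. A CCNB1-side H3K4me1 peak at 21027 to 24072 bp, with a fold enrichment of 3.94, contains the TSS of the neighbour CENPH, which was named after its values were seen.

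E2F1, the activator E2F, and RB1, the pocket protein that restrains it, both had marked promoters. H3K4me3 at E2F1 had a fold enrichment of 27.8 and a width of 1862 bp, with H3K9Ac at 13.5 and 3589 bp and H3K4me1 at 4.56 and 4355 bp. At RB1, H3K4me3 had a fold enrichment of 28.8 and a width of 2200 bp and H3K9Ac 16.0 and 3726 bp. The H3K4me1 intervals beside the RB1 TSS, with fold enrichments of 2.82 and 3.47, were not past the limits. Downstream of E2F1, peaks of H3K4me3 (23.2), H3K9Ac (14.3) and H3K4me1 (4.50) lay at the promoter of NECAB3, followed by a CTCF peak with a fold enrichment of 9.78 at 17974 to 18969 bp. Inside the RB1 record, peaks of H3K4me3 (12.6), H3K9Ac (11.4) and H3K4me1 (6.06) about the position 228650 bp downstream contained the TSS of RCBTB2, and 3 CTCF peaks with fold enrichments of 7.66, 9.08 and 7.98 lay 30675, 276152 and 291688 bp from the RB1 TSS. NECAB3 and RCBTB2 were named after their values were seen.

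Set in order, H3K4me3 fold enrichment at the TSS ran from 18.0 at CCND1 through 21.5 at CCNB1, 25.3 at CDK1, 26.2 at CCND3, 27.8 at E2F1, 28.8 at RB1, 29.3 at CCNE2 and 29.6 at CCNA2 to 30.5 at CCNE1. The median of the 9 members was 27.8, and that of all genes with such a peak 22.5, with 25% of genes below 17.3 and 25% above 27.8. Without replicates it cannot be said which neighbours in that order differ. For H3K9Ac the members ran from 13.1 to 19.3 with a median of 15.0, and the median of all genes was 13.1. For H3K4me1 the 6 members ran from 4.20 to 7.74 with a median of 4.93, and the median of all genes was 4.69.

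**Figure D3:**
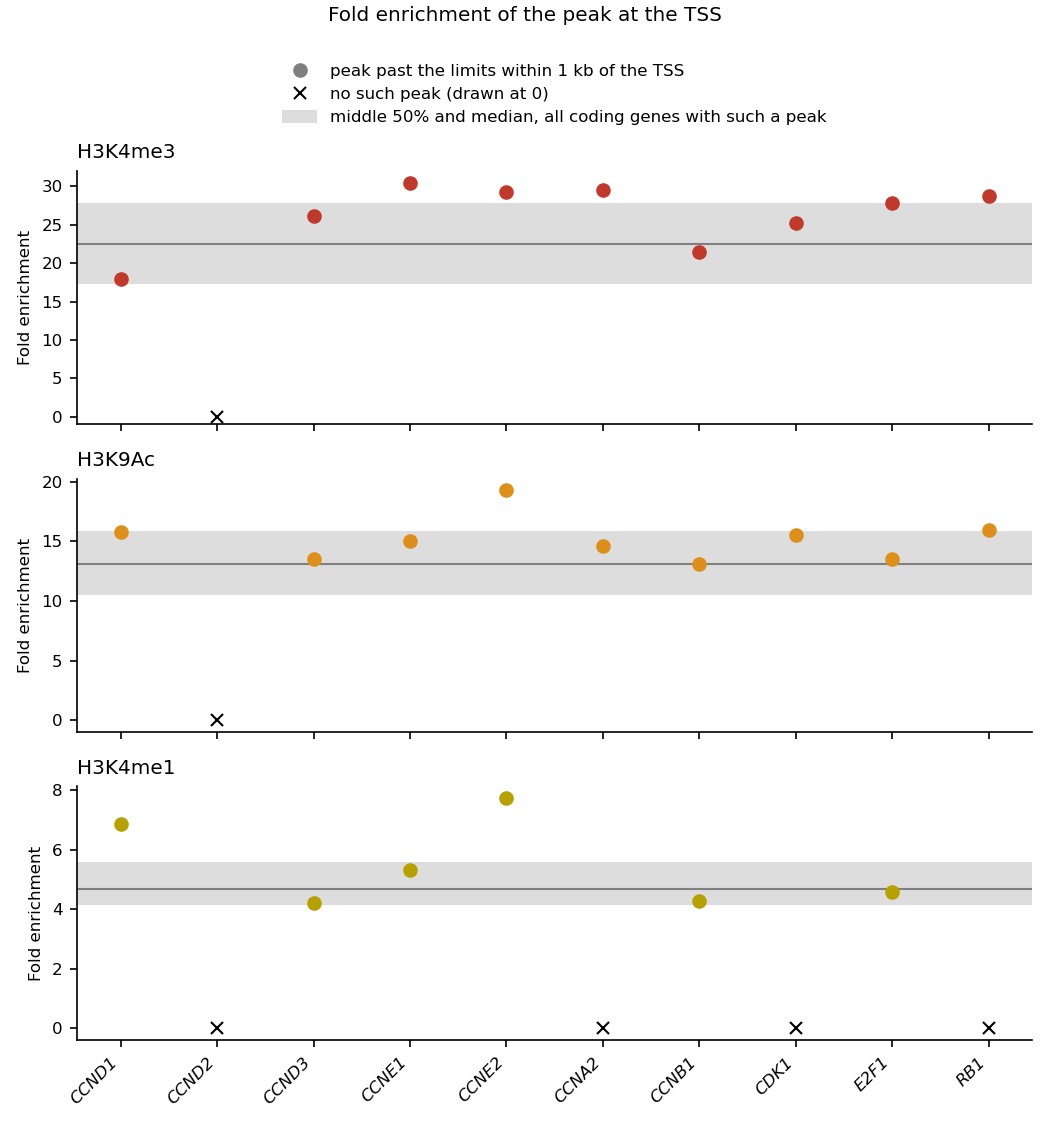
Fold enrichment of the peak within 1 kb of the TSS for H3K4me3, H3K9Ac and H3K4me1, 1 dot per member and library, with crosses at 0 where no peak past the limits was found. The grey band and line are the middle 50% and the median of all protein-coding genes with such a peak. CCND2 has a cross in all 3 panels, and CCNE2 has the highest dot for H3K9Ac and H3K4me1.

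H3K9Ac reached beyond H3K4me3 on both sides at all 9 members, as it did at most genes. Among the 11590 genes with both marks at the TSS, the H3K9Ac peak ended further downstream at 95.0% and began further upstream at 94.3%. Downstream, the excess was 6514 bp at CCND1, 1726 bp at CCNA2, 1163 bp at E2F1, 979 bp at CCNB1, 955 bp at CCND3, 427 bp at CDK1, 385 bp at CCNE2, 330 bp at CCNE1 and 289 bp at RB1. Its median was 955 bp over the members and 419 bp over all genes. Upstream, the excess ranged from 121 bp at CCNA2 to 1746 bp at CCND1, with RB1 next at 1237 bp, and its median was 449 bp against 335 bp over all genes. The ratio of the fold enrichment of H3K4me3 to that of H3K9Ac was lowest at CCND1, 1.14, and between 1.52 and 2.07 at the other 8 members, against a median of 1.70 over all genes.

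An H3K4me1 peak past the limits contained the TSS at 4 of 10 members, CCND3, CCNE1, CCNE2 and E2F1, against 33.4% of all genes. Away from the promoters, 7 H3K4me1 peaks past the limits over the members overlapped no H3K4me3 interval, 2 each at CCND2 and CCND3 and 1 each at CCND1, CCNE1 and E2F1. In the whole H3K4me1 list 18967 peaks past the limits, or 58.7%, overlapped none. Of the 7, that at 27659 to 23965 bp upstream of CCND3 had the highest fold enrichment, 6.02, and that upstream of E2F1, 4399 to 3767 bp before the TSS, the lowest, 3.78.

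H3K36me3, whose intervals were all below the limits here, covered over 80% of the gene record at 6 of the 10 members. With every deposited interval counted, H3K36me3 lay over the gene record of 9 of 10 members, against 56.3% of all genes. It covered 91.5% of CDK1, 91.2% of CCNB1, 88.7% of CCND1, 86.2% of CCNE1, 82.7% of CCNA2 and 80.8% of CCNE2, more than at least 89.6% of all genes in each case. E2F1 was covered to 51.5% in 2 intervals and RB1 to 7.16% in 11 intervals, 11.9% of its canonical transcript. CCND3 was covered to 2.46% of its long record and 41.1% of its canonical transcript, and CCND2 was not covered. The median coverage was 81.8% over the members, 4.83% over all genes and 37.7% over the 11924 genes with H3K4me3 at the TSS. Gene length was not matched in this comparison, and the median record was 14920.5 bp over the members against 27219 bp over all genes.

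The highest fold enrichments of H3K36me3 were 5.53 at CCND1, 5.44 at CCNB1 and 5.28 at CDK1, over 5, but their −log10 q of 7.20, 7.43 and 6.69 stayed short of 10. Fold enrichment was 4.91 at CCNA2, 4.22 at CCND3, 3.78 at RB1, 3.71 at CCNE1, 3.50 at CCNE2 and 3.37 at E2F1. The interval over CCNE2 was 66005 bp wide and ended 52335 bp past the gene, and that over CCNA2 ended 14082 bp past it, so these intervals also belong to neighbouring ground.

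**Figure D4:**
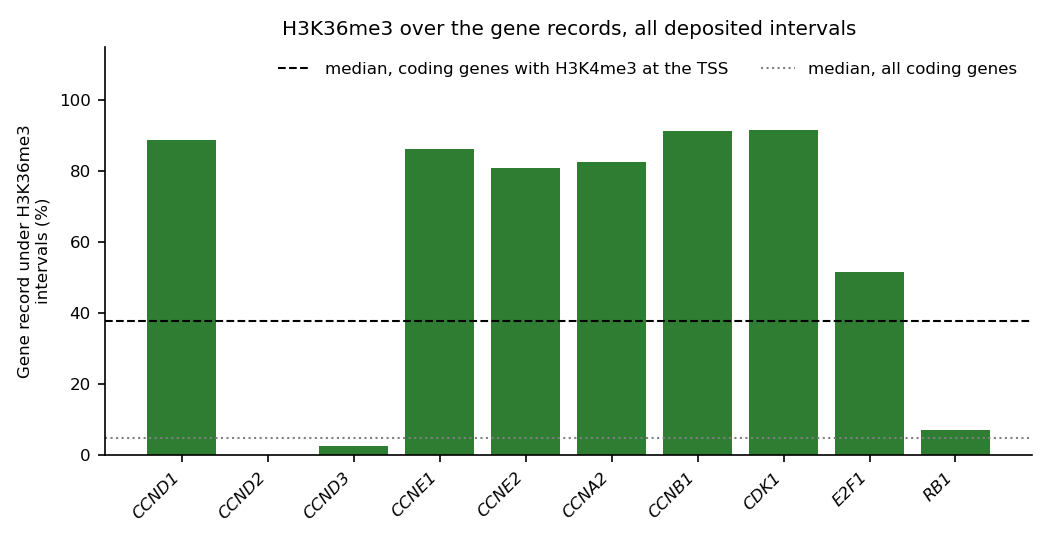
Percent of each gene record under H3K36me3 intervals, all deposited intervals counted, 1 bar per member, with the medians of all protein-coding genes and of those with H3K4me3 at the TSS as lines. Bars of 6 members stand above 80%, and CCND2 has none.

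The start of H3K36me3 was set against the end of H3K4me3. The nearest H3K36me3 interval started 961 bp after the TSS at CCNB1, 1252 bp at CDK1, 1289 bp at CCNA2, 1507 bp at CCND1, 1695 bp at CCNE1, 1762 bp at CCNE2 and 1955 bp at E2F1, and further in at CCND3 (4041 bp) and RB1 (4322 bp). At CCNA2, CDK1 and CCNB1 it overlapped the end of the H3K4me3 peak by 72, 133 and 161 bp, and at CCND1 by 1781 bp, while at E2F1, CCNE1 and CCNE2 gaps of 379, 476 and 940 bp remained, and at CCND3 and RB1 wider gaps of 2671 and 2959 bp. The median gap was 379 bp over the 9 members and 946 bp over the 9942 genes with both marks.

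CTCF peaks were read for the core motif that CTCF is known to bind, 12 bases searched by name as the CTCF core motif on both strands. An exact match was found in 1 of the 9 peaks past the limits over the members, against 22.4% of all CTCF peaks past the limits, and a match with at most 1 mismatch in 6 of 9, against 65.9%. The exact match lay in an intron of CCND2. The best match at CCND1 spanned the TSS itself, 5 bases before it and into the 5′ UTR of exon 1. The match at CCND1 had 1 mismatch, as did both at CCND3, in introns of its gene record, the match beyond the 3′ end of CCND2, in the record of TIGAR, and the match downstream of E2F1, in the records of NECAB3 and ACTL10, neighbours named after the values were seen. The 3 peaks over RB1 held none with fewer than 2 mismatches. Sequences are shown for the 6 matches with the core in capitals and 9 bases on each side, 5′ to 3′ on the strand of the match, from GRCh37. They lie at chr11:69455910-69455939 on the plus strand (CCND1), chr12:4386272-4386301 on the minus strand (CCND2, intron), chr12:4417139-4417168 on the plus strand (CCND2, beyond the 3′ end), chr6:41904213-41904242 on the minus strand (CCND3, downstream, 5313 bp from the TSS), chr6:42012121-42012150 on the minus strand (CCND3, far upstream) and chr20:32255885-32255914 on the plus strand (E2F1, downstream).
CCND1: gtcctggagCCTCCAGAGGGCtgtcggcgc
CCND2, intron: gcatgtcttCCACTAGATGGCagcagagcc
CCND2, beyond the 3′ end: ctgcgaagtCCACTAGGTGGTactaatgcc
CCND3, downstream: cctgagcctCCAGTAGAGGGAaacctccaa
CCND3, far upstream: cctgatcgtCCACCAGGTGGAgctgttgcc
E2F1, downstream: cctgcggccCCACCTGGTGGCcaagcatgg

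In the promoters, taken as 250 bases before to 50 after the TSS, the E2F words were found at 4 of 10 members, CCND1, CDK1, E2F1 and RB1, against 4.33% of all protein-coding genes. They stood 147 to 140 bases before the TSS at CCND1, 128 to 121 at CDK1, 33 to 26 and 20 to 13 at E2F1 and 25 to 18 at RB1. Base composition was not matched in this or the other word counts. Promoter GC content was 64.7% at CCND1, 59.3% at CDK1, 73.3% at E2F1 and 69.7% at RB1, against a median of 63.3% over all genes. CCAAT was found at 6 members against 35.9%, with 3 words at E2F1, 2 each at CCNB1 and CDK1 and 1 each at CCND3, CCNE2 and CCNA2. CHR, the word bound by the DREAM complex, was found at 2 members against 11.6%, with 3 words at CDK1. The CRE was found at CCNA2 alone, 81 to 74 bases before the TSS, against 2.68%, and AP-1 at 0 members against 3.57%. An E-box (CACGTG) was found at CCNB1 alone against 8.74%, and a GC box (GGGCGG), known as a binding word of SP1, at 9 members against 60.9%. These are matches of letters, and no factor other than CTCF was measured. Only the exact words given were searched, so a member without a match may still carry a variant of the word.

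Marks at the TSS were also counted over 51 other genes of the cell cycle, in 8 groups. H3K4me3 and H3K9Ac past the limits were found at 49 of 51 genes each (96.1%), against 59.1% and 58.5% of all protein-coding genes, and H3K4me1 at 33 (64.7%) against 49.1%. CTCF was found at 2 (3.92%) against 13.6%, and H3K36me3 at 1 (1.96%) against 0.298%. H3K27me3 was found at 0 against 1.22%, and also at 0 against 3.03% when the gene record was included. The H3K4me3 fold enrichment had a median of 22.6, from 11.6 to 37.8, close to the 22.5 of all genes. H3K36me3 intervals of any strength lay over 49 of the 51, against 56.3% of all genes, with a median coverage of 80.0% against 4.83% over all genes and 37.7% over those with H3K4me3 at the TSS. Gene length was not matched here either.

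The genes without H3K4me3 were CCNA1, the A-type cyclin of the germ line, which had no peak of any of the 6 marks past the limits at its TSS, and CCNB3, a B-type cyclin known from meiosis, which had H3K4me1 only. In each group the gene with the highest H3K4me3 was CDK2 (22.8), the kinase of E-type and A-type cyclins, CCNF (32.9), the cyclin of an SCF ubiquitin ligase, E2F4 (37.8), a repressor E2F, and RBL2 (29.4), a pocket protein. They were followed by LIN9 (35.8), a subunit of the MuvB core, CDC25A (31.9), a phosphatase that activates CDKs, CDT1 (34.6), which licenses replication origins, and CDC20 (26.5), an activator of the anaphase-promoting complex. H3K36me3 past the limits at the TSS was found at CDT1, and CTCF at TK1 and CDC20, named here after their values were seen. Among the 10 members and the 51 other genes, CCND2 was thus the only one with H3K27me3 past the limits at the TSS or in the gene record.

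**Figure D5:**
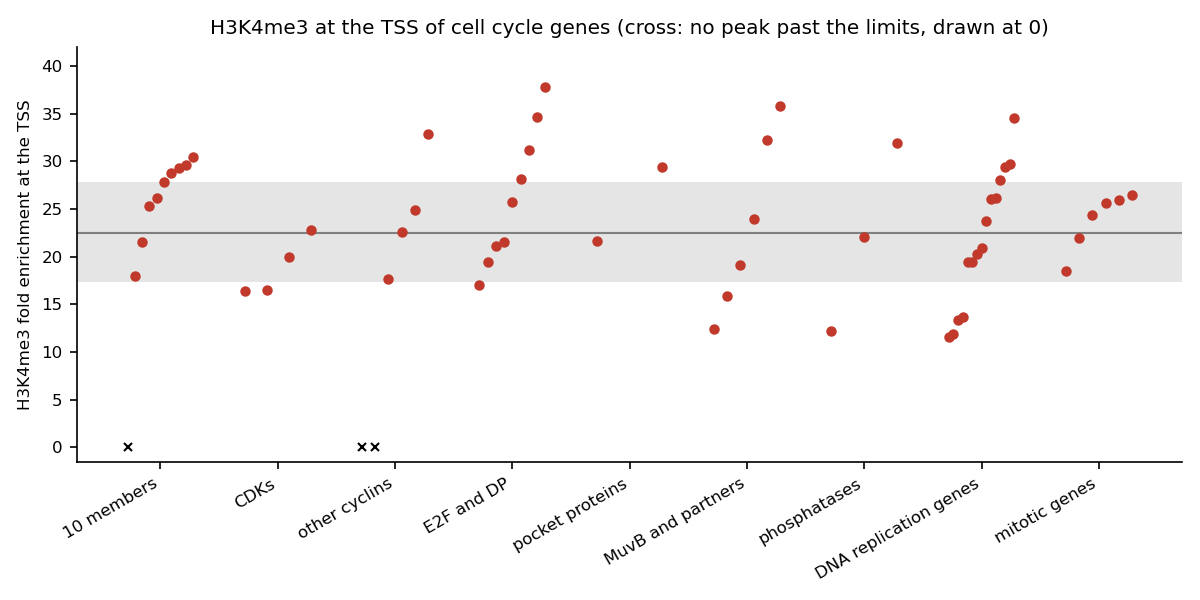
H3K4me3 fold enrichment at the TSS for the 10 members and the 51 other cell cycle genes by group, 1 dot per gene, with crosses at 0 for genes without a peak past the limits. The grey band and line are the middle 50% and the median of all protein-coding genes with such a peak. Crosses stand for CCND2, CCNA1 and CCNB3, and E2F4 has the highest dot, 37.8.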

How the data were processed

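PIXUL-ChIP-seq peak lists of 6 marks in HCT116 cells were used, 1 library per mark. The H3K27Ac library was not analysed here. BWA 0.7.12 served the authors for alignment to hg19, and MACS2 in broad mode (cutoff 0.1) for peak calling, while the submitters' processing notes name MACS 1.4.2, SAMtools 0.1.19 and bcl2fastq 2.20.0.442. The study gives paired-end reads and the labels single-end reads, and neither could be checked. The deposited fold enrichment is a linear ratio over background, the study naming an input. The deposited −log10 p-values and −log10 q-values, like the deposited score, describe whole peaks, and reads per list are unknown. The deposited peak positions (start and end) were read as BED intervals.

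The limits of the Methods were applied, with CTCF under those of the other marks. Genes, TSS and exons came from GENCODE 44 on GRCh37, with 19881 of 20163 protein-coding genes having a canonical transcript, and the gene's 5′ end used for the rest. Overlaps needed 1 bp. No test was possible, and member counts stand beside the same count over all genes. All members were named, and of the wider list those without H3K4me3 and the highest in each group. The members and lists were chosen with earlier results of these data known. The promoter sequence of CCND2 is not reported here. Overlap code was tested on simulated data. Sequences were read with pyfaidx 0.9.0.4 and samtools 1.23.1, Wilson intervals came from scipy 1.17.1, figures from matplotlib 3.10.9, and tables from pandas 2.3.3 and numpy 2.4.6 under Python 3.11.15.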

Additional observations from a re-analysis of the deposited data

How the results depend on the processing

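No paired analysis was possible because no mark was profiled in more than 1 library. Of 90 alternatives, 66 kept the count within 1.5 times and 24 did not. Some of the 66 could not have moved, such as H3K36me3 counts of 0 under a fold enrichment limit multiplied by 1.5. With every deposited interval, those over the members rose to 19 for H3K9Ac, 32 for H3K4me1, 25 for H3K36me3, 6 for H3K27me3 and 16 for CTCF. At the TSS they then marked 1 member for H3K36me3 and 5 for CTCF, and 2 members for H3K27me3 at the TSS or in the record. In the wider list they marked 6 genes for H3K36me3, 1 for H3K27me3 and 13 for CTCF. With the 2 pairs of limits exchanged between the mark groups, peaks over the members numbered 3 for H3K4me1, 9 for H3K36me3, 0 for H3K27me3 and 14 for CTCF, and members marked at the TSS 2, 1, 0 and 3. The H3K27me3 peak at CCND2 therefore rests on the milder limits. With 20 kb around the genes, 19 H3K9Ac peaks were counted. H3K4me3 peaks rose to 18 there, just at 1.5 times and so counted as kept, against 12 for each mark with 10 kb. H3K36me3 in the gene record fell to 0 members under the limits of the Methods. The CTCF core with 1 mismatch was in 6 peaks. With promoters of 500 bases before to 100 after the TSS, AP-1 was in 1 and the E-box in 2. The counts of members with H3K4me3 and H3K9Ac at the TSS stayed within 1.5 times in every alternative run. Depth per library is unknown, so weak marks may be missing from the lists.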
